A study of Drosophila melanogaster with 8 samples.

Results

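The genes described are 40 genes of mitosis and the centrosome, chosen by name for their known roles. Each was matched, by symbol or synonym, to probe sets annotated with 1 gene symbol, and the brightest probe set stood for the gene. A probe set was found for 30 of the 40 genes, and all 30 passed the filter on dim probe sets, among 6865 genes tested in all. The other 10 (CycA, Cdk1, stg, polo, aurA, cnn, asp, BubR1, Klp3A and pav) were not analysed here. L57 is a Drosophila melanogaster cell line grown in culture, and its total RNA was measured on 8 Affymetrix arrays to find genes that respond to juvenile hormone III (JH III), a hormone that keeps insects larval and governs reproduction. The arrays form 4 groups of 2: cells given the solvent DMSO, and cells given 1 µM JH III for 3, 6 or 12 h. All groups were of the same line and medium, and no genetic change is described. The series text treats the DMSO cells as the 0 h point, so no solvent control was matched in time to an exposure. For 1 DMSO array the source label speaks of embryos, although its growth protocol is that of L57 cells like the others. Nothing in the labels says that the arrays of a group came from separate cultures, so p-values measure the spread between these arrays, which may be technical.

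Mitosis is driven by cyclin-dependent kinase bound to A and B cyclins and is carried out by a spindle of microtubules that grows from centrosomes and captures chromosomes at kinetochores. The spindle checkpoint holds the anaphase-promoting complex inactive until all kinetochores are attached, after which securin and cyclin B are destroyed and the sister chromatids part. The chromosomal passenger complex, built on the kinase Aurora B, corrects attachments and later acts in cytokinesis, and condensin compacts the chromosomes. Many of these transcripts are abundant in dividing cells and scarce in resting ones. In RNA of a whole culture, fewer cells in or near division and less of a transcript per cell cannot be told apart.

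The values are signal intensity as the authors' software computed it, on a linear scale. Signals of different probe sets were compared to pick a gene's brightest, to leave out dim ones and to sum hemocyte markers. They were also compared for ratios of control transcripts and to describe and scale whole arrays. Changes are differences of log2(signal + 25) with their standard error from limma, and p-values were adjusted over all 8380 probe sets tested. The added constant understates the change of dim genes. A gene was called changed at an adjusted p under 0.05. Of the table, 3151 probe sets (22.5%) were unreadable on JH III 6 h replicate 2 and were left out there, so 18 of the 30 genes had 1 readable array at 6 h and 12 had both. For those 18 genes the 6 h value rests on a single array, whose spread is assumed to match the remaining groups. The number of arrays limits the precision.

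At 3 h, 7 of the 30 genes were called, or 23.3%, where 18.8% of all probe sets were called (10.6% higher and 8.16% lower). The genes borr, Det, tacc, msps, glu and Klp10A rose and aurB fell. At 6 h, tacc, msps, thr and glu rose and none fell, which is 4 of 30 or 13.3% beside 13.5% of all probe sets (7.32% higher and 6.21% lower). At 12 h tacc still lay above DMSO and Incenp had fallen, 2 of 30 or 6.67% beside 5.92% of all (3.34% higher and 2.58% lower). In the direct comparison of 12 h with 3 h, tacc, msps, Mad2, SMC2 and Klp10A were lower and none was higher, 5 of 30 or 16.7% beside 16.5% of all (7.48% higher and 9.02% lower). In total 11 genes were called in at least 1 of these comparisons and 19 in none. The share called in either direction together lay near that of the whole array in each comparison. By direction the shares of the genes were 20% higher and 3.33% lower at 3 h, and 13.3% and 0% at 6 h. They were 3.33% each way at 12 h, and 0% higher and 16.7% lower between 12 h and 3 h. These shares rest on few genes, and the balance at 3 h and 12 h turned with the scaling, as given below. At 6 h the shares are not like for like, as 18 of the 30 genes but only 2611 of the 8380 probe sets had 1 readable array. By limma without adjustment, a p under 0.05 was reached at 3 h by 7 genes above and 3 below DMSO. At 6 h there were 5 above and 0 below, and at 12 h 3 above and 6 below. Between 12 h and 3 h there were 0 above and 7 below. The share of all probe sets with such a p was not counted. It is at least the share called, but its size is not known. These counts therefore cannot tell whether the genes differed from the rest of the array.

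**Figure D1:**
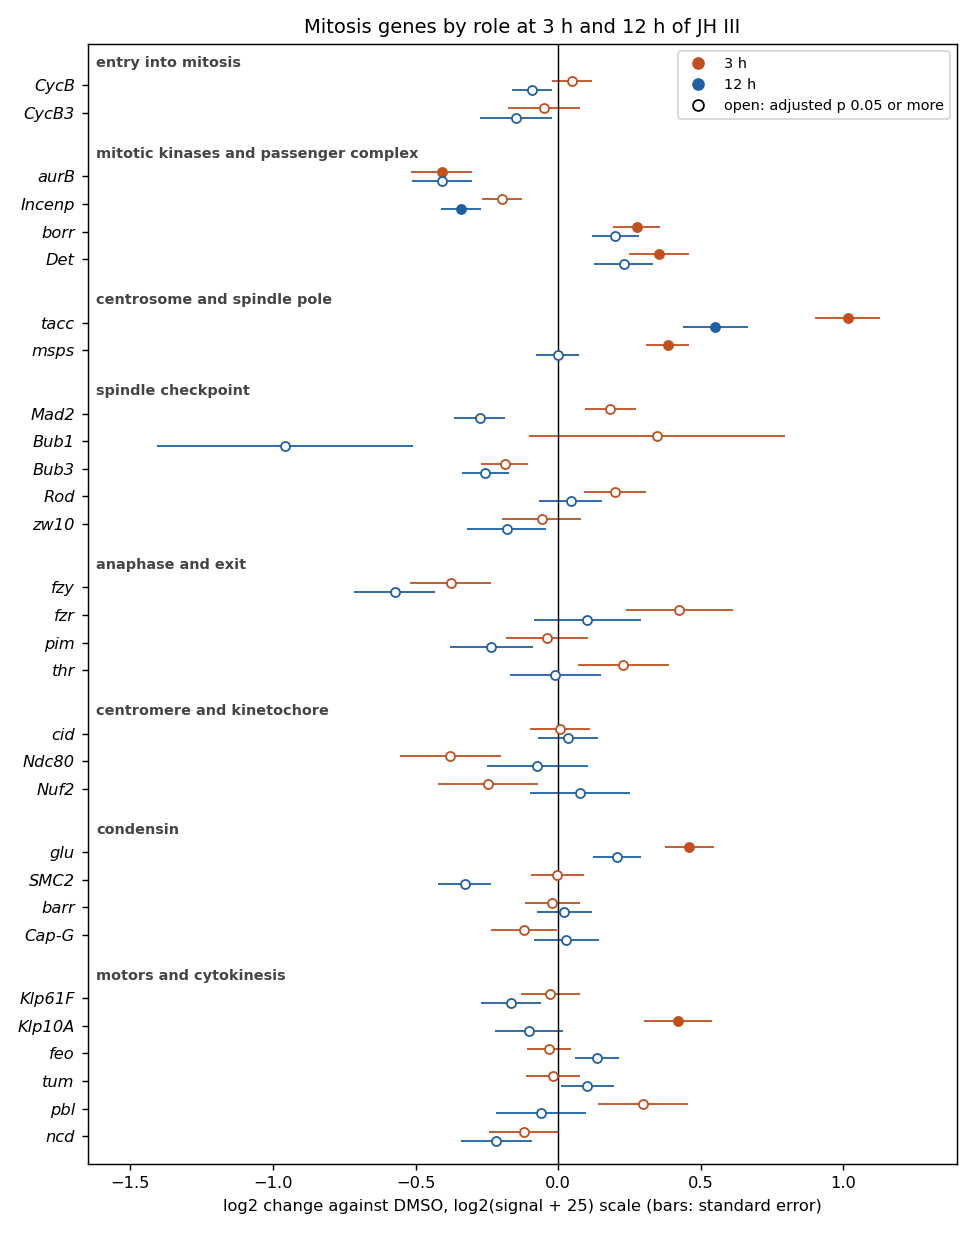
Log2 change against DMSO (horizontal axis) of each of the 30 genes at 3 h (orange) and 12 h (blue), grouped by role. Bars are standard errors of the limma fit and filled points passed an adjusted p of 0.05, and tacc lay farthest to the right at both times, at 1.01 and 0.55.

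The calls rest on few arrays. Of the 7 calls at 3 h, 2 were made without DMSO replicate 1 and 1 without DMSO replicate 2, and 3 and 2 without 3 h replicates 1 and 2. Of the 4 calls at 6 h, 2 were made without DMSO replicate 2 and 1 without 6 h replicate 1, which left only 12 genes to test. None was made at 12 h without either DMSO array, either 3 h array or 12 h replicate 2. Of the 5 calls between 12 h and 3 h, 3 were made without DMSO replicate 1, 0 and 1 without 3 h replicates 1 and 2, and 2 without 12 h replicate 1. Centring each array on its median moved the median change of all probe sets by -0.16 at 3 h, -0.16 at 6 h and -0.13 at 12 h, and turned the balance of calls at 3 h and 12 h. With it 1 gene was higher and 4 lower at 3 h, 4 higher and 1 lower at 6 h, and 0 higher and 6 lower at 12 h, beside 6 and 1, 4 and 0, and 1 and 1 on the authors' scale. With quantile normalization 3 genes were higher and 0 lower at both 3 h and 6 h, and 0 were called at 12 h. That method used only the readable probe sets of JH III 6 h replicate 2, and the unreadable ones were brighter than the rest. On DMSO replicate 1 the trimmed mean was 500.1 over all probe sets and 374.7 over those readable on every array. Quantile normalization moved the median change of all probe sets by 0.10 at 6 h. The part of this in the calls it lost was not tested. Unless a scaling is named, all changes below are on the authors' scale.

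**Figure D2:**
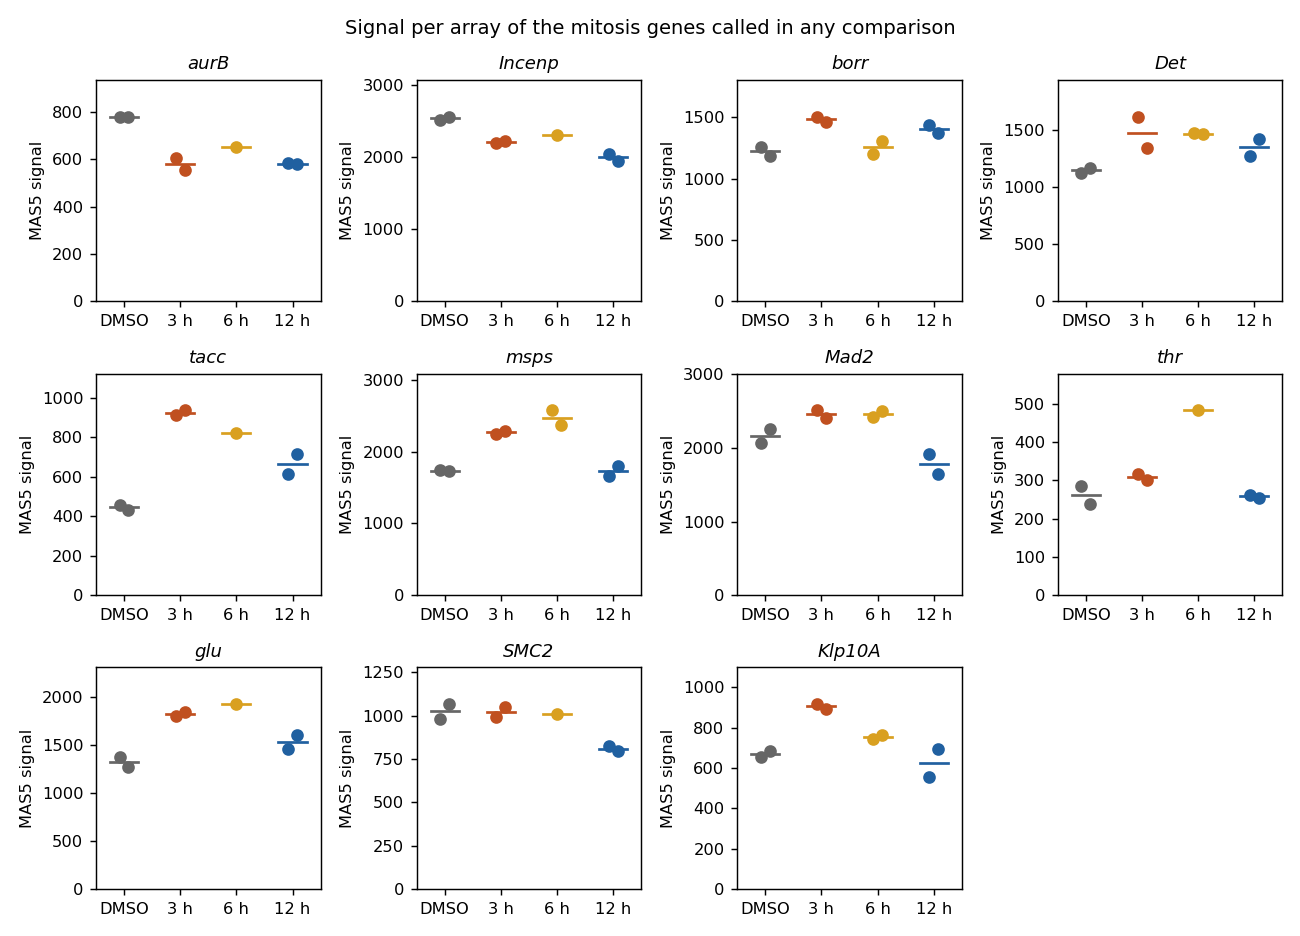
Signal on each array (vertical axis, linear scale from 0, set for each gene) of the 11 genes called in any comparison, in DMSO and at 3, 6 and 12 h of JH III. Points are arrays and short lines are group means. A single point at 6 h marks a gene readable on 1 of the 2 arrays. At every time tacc, Det and glu lay above both DMSO arrays, and aurB and Incenp below both. Mad2 lay above them at 3 h and 6 h and below them at 12 h. Of all probe sets 62.4%, 65.4% and 51.7% did not overlap DMSO at 3, 6 and 12 h.

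Of the genes that start mitosis, both B-type cyclins measured gave changes near 0. CycB (CG3510), the cyclin B subunit of the mitotic kinase, had signals of 3022 and 2826 under DMSO, 3034 and 3013 at 3 h, 2995 at 6 h, and 2709 and 2772 at 12 h. Its DMSO arrays overlapped those at 3 h and 6 h, and both 12 h arrays lay just under them. The log2 change was 0.05 ± 0.07 at 3 h (adjusted p = 0.691, 95% interval of the fold change 0.926 to 1.15) and -0.09 ± 0.07 at 12 h (adjusted p = 0.491, 0.840 to 1.05). CycB3 (CG5814), a B-type cyclin of later mitosis, had signals of 1194 and 1248 under DMSO, 1156 and 1203 at 3 h, 1258 and 1197 at 6 h, then 947 and 1276 at 12 h. The arrays of the 4 groups overlapped, and the wide gap between the 12 h arrays exceeded every difference between group means. Its change was -0.05 ± 0.13 at 3 h and -0.15 ± 0.13 at 12 h (adjusted p = 0.835 and 0.546). By limma neither of these genes reached even an unadjusted p of 0.05 in any comparison.

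The 4 genes of the chromosomal passenger complex did not move together: at 3 h borr and Det rose, aurB fell, and Incenp was not called. For aurB (CG6620), the Aurora B kinase itself, signals were 779 and 777 under DMSO, 606 and 555 at 3 h, 653 at 6 h, and 582 and 579 at 12 h. Every JH III array lay below both DMSO arrays. It fell by 0.41 ± 0.11 at 3 h (adjusted p = 0.0311), and the same size at 12 h, -0.41 ± 0.11, missed the threshold (adjusted p = 0.0629), though it passed with median centring (-0.53, adjusted p = 0.0201). The 3 h call was lost without either DMSO array (adjusted p = 0.138 and 0.147) or either 3 h array (0.0779 and 0.153) and with quantile normalization (0.121), and ranged from 0.00704 to 0.153 over all alternatives. Incenp (CG12165), the scaffold that binds and activates Aurora B, had signals of 2509 and 2557 under DMSO, 2198 and 2214 at 3 h, 2299 at 6 h, and 2045 and 1948 at 12 h. These too were lower on every JH III array than on both DMSO arrays. Its change was -0.20 ± 0.07 at 3 h (adjusted p = 0.0899; -0.36 with median centring, which was called, adjusted p = 0.00976), and it fell by 0.34 ± 0.07 at 12 h (adjusted p = 0.0302). That call was lost without either DMSO array (adjusted p = 0.155 and 0.187), either 3 h array (0.0618 and 0.0617) or 12 h replicate 2 (0.0814) and with quantile normalization (0.207), and ranged from 0.0105 to 0.207.

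The other subunits lay on the opposite side of DMSO. The gene borr (CG4454), the Borealin subunit that helps target the complex, had signals of 1258 and 1187 under DMSO, 1507 and 1464 at 3 h, 1199 and 1312 at 6 h, then 1440.4 and 1376 at 12 h. The 3 h and 12 h arrays were all above DMSO and the 6 h arrays overlapped it. It rose by 0.28 ± 0.08 at 3 h (adjusted p = 0.0470) and gave 0.20 ± 0.08 at 12 h (adjusted p = 0.195). Its dimmer probe set gave 0.07 ± 0.23 at 3 h and 0.55 ± 0.23 at 12 h (adjusted p = 0.879 and 0.200), and with the mean of both the 3 h value was 0.17 (adjusted p = 0.376). The call was also lost without either DMSO array (adjusted p = 0.119 and 0.243) or either 3 h array (0.199 and 0.132), with quantile normalization (0.317), and with median centring, which lowered the 3 h value to 0.11 (adjusted p = 0.377), in a range of 0.0332 to 0.377. Det (CG12265), the survivin-like subunit, had signals of 1123 and 1174 under DMSO, 1620.4 and 1341 at 3 h, 1475 and 1468 at 6 h, then 1277 and 1428 at 12 h. All JH III arrays lay above both DMSO arrays. It rose by 0.35 ± 0.10 at 3 h (adjusted p = 0.0434), gave 0.35 ± 0.10 at 6 h (adjusted p = 0.0550) and gave 0.23 ± 0.10 at 12 h (adjusted p = 0.235). Without either DMSO array (adjusted p = 0.191 and 0.137), 3 h replicate 1 (0.273) or either 6 h array (0.0599 and 0.0599) the 3 h call was lost, in a range of 0.0292 to 0.273. It was also lost with quantile normalization (0.177) and with median centring, where the value was 0.19 (adjusted p = 0.227).

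The genes of the centrosome and spindle pole held the largest change called against DMSO among the 30, that of tacc. The gene tacc (CG9765) encodes the centrosomal protein that recruits Msps to the spindle poles. Its signals were 456 and 433 under DMSO, 912 and 935 at 3 h, 823 at 6 h, and 615 and 714 at 12 h. Each JH III array lay well above both DMSO arrays, highest at 3 h, and the 12 h arrays lay between DMSO and 3 h. At 3 h tacc rose 2.02-fold (1.01 ± 0.11, adjusted p = 0.00110), at 6 h, with 1 readable array, 1.81-fold (0.85 ± 0.14, adjusted p = 0.00685), and at 12 h 1.47-fold (0.55 ± 0.11, adjusted p = 0.0300). The calls at 3 h and 6 h were kept under every alternative that gave a value, with adjusted p from 0.000645 to 0.0169 and from 0.00458 to 0.0480. The 12 h call was lost without either DMSO array (adjusted p = 0.136 and 0.174), either 3 h array (0.0602 and 0.0605) or 12 h replicate 2 (0.0922), with quantile normalization (0.151) and with median centring (0.0647), in a range of 0.0208 to 0.174. The 3' to 5' ratio of the control transcripts, a sign of RNA integrity, was set against DMSO on the log2 scale. At 3 h it differed by 0.19 for actin, -0.025 for Gapdh and 0.29 for eIF4A. The differences were 0.19, 0.06 and 0.07 at 6 h, and 0.21, 0.01 and 0.17 at 12 h. For eIF4A the DMSO arrays themselves gave 0.57 and 0.80. The part of this ratio in the changes was not tested.

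The gene msps (CG5000), the microtubule polymerase that Tacc anchors, had signals of 1740.3 and 1729 under DMSO, 2246 and 2296 at 3 h, 2578 and 2376 at 6 h, then 1670.0 and 1800.0 at 12 h. The 3 h and 6 h arrays lay above both DMSO arrays, and the 12 h arrays lay on either side of them. At 3 h it rose 1.30-fold (0.38 ± 0.08, adjusted p = 0.00857), and at 6 h, where both arrays were readable, 1.42-fold (0.51 ± 0.08, adjusted p = 0.00356). At 12 h the change was 0.00 ± 0.08 (95% interval of the fold change 0.888 to 1.12, adjusted p = 0.998). The 6 h call was kept under all 19 alternatives (adjusted p from 0.00192 to 0.0412). The 3 h call was lost without either DMSO array (adjusted p = 0.0553 and 0.0665), without 3 h replicate 2 (0.0579) and with median centring (0.108), in a range of 0.00501 to 0.108.

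None of the 5 genes of the spindle checkpoint was called against DMSO at any time by limma on the authors' scale, and at 12 h 2 of them, Mad2 and Bub3, had an unadjusted p under 0.05. Mad2 (CG17498), which binds and restrains the activator of the anaphase-promoting complex, had signals of 2065 and 2260.1 under DMSO, 2509 and 2403 at 3 h, 2425 and 2507 at 6 h, then 1922 and 1651 at 12 h. The 3 h and 6 h arrays were higher than DMSO and the 12 h arrays lower, with no overlap at any time. Each difference from DMSO missed the threshold: 0.18 ± 0.09 at 3 h, 0.19 ± 0.09 at 6 h and -0.27 ± 0.09 at 12 h (adjusted p = 0.192, 0.199 and 0.108). With median centring Mad2 was called lower at 12 h (-0.40, adjusted p = 0.0188). Bub3 (CG7581), which brings checkpoint kinases to kinetochores, gave -0.19 ± 0.08 at 3 h and -0.26 ± 0.08 at 12 h (adjusted p = 0.163 and 0.117), and was called lower at both with median centring (-0.35 and -0.38, adjusted p = 0.0305 and 0.0395). Bub1 (CG14030), a checkpoint kinase, had signals from 17.8 to 161 over the arrays, and its change of -0.96 ± 0.45 at 12 h did not pass (adjusted p = 0.260). Rod (CG1569) and zw10 (CG9900), parts of the complex that loads Mad2 and dynein on kinetochores, gave 0.20 ± 0.11 and -0.06 ± 0.14 at 3 h, and 0.04 ± 0.11 and -0.18 ± 0.14 at 12 h.

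Of the 4 genes of anaphase and mitotic exit only thr was called, and only at 6 h. The gene fzy (CG4274), the Cdc20 activator of the anaphase-promoting complex, had signals of 1925 and 1894 under DMSO, 1369.5 and 1566 at 3 h, 1646 at 6 h, and 1493 and 1089 at 12 h. Every JH III array lay below both DMSO arrays. Its changes, -0.38 ± 0.14 at 3 h, -0.21 ± 0.17 at 6 h and -0.57 ± 0.14 at 12 h, all missed the threshold on the authors' scale (adjusted p = 0.104, 0.480 and 0.0544). With median centring it was called lower at 3 h (-0.54, adjusted p = 0.0259) and at 12 h (-0.70, adjusted p = 0.0191). The gene fzr (CG3000), the Cdh1 activator used after mitosis and in G1, had signals of 170 and 195 under DMSO, 246 and 260 at 3 h, 271 and 210 at 6 h, then 201 and 193 at 12 h. It was higher than DMSO at 3 h and 6 h and overlapped it at 12 h, with changes of 0.42 ± 0.19, 0.35 ± 0.19 and 0.10 ± 0.19 (adjusted p = 0.153, 0.257 and 0.804).

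The gene thr (CG5785), which acts with separase in parting sister chromatids, had signals of 284 and 237 under DMSO, 316 and 301 at 3 h, 482 at 6 h, and 262 and 253 at 12 h. The readable 6 h array was the highest of all, the 3 h arrays lay just above DMSO, and the 12 h arrays fell between the DMSO arrays. At 6 h it rose 1.78-fold (0.83 ± 0.20, adjusted p = 0.0283), a value from 1 array whose spread is assumed to be that of the other groups. The call was lost without either DMSO array (adjusted p = 0.0600 and 0.135) and with quantile normalization (0.150), in a range of 0.0167 to 0.150. The gene pim (CG5052), the securin of Drosophila, gave -0.04 ± 0.14 at 3 h and -0.23 ± 0.14 at 12 h (adjusted p = 0.893 and 0.395).

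At the centromere and kinetochore none of 3 genes was called on the authors' scale, where none had an unadjusted p under 0.05 by limma in any comparison. The gene cid (CG13329), the centromeric histone that marks the site of the kinetochore, had signals of 838 and 745 under DMSO, 783 and 805 at 3 h, 655 and 709 at 6 h, then 854 and 768 at 12 h. The 6 h arrays were lower than both DMSO arrays and the others overlapped them, and with median centring cid was called lower at 6 h (-0.37, adjusted p = 0.0453). Its change was 0.01 ± 0.11 at 3 h (95% interval of the fold change 0.851 to 1.19) and 0.03 ± 0.11 at 12 h. Ndc80 (CG9938) and Nuf2 (CG8902), partners in the complex that grips microtubules, gave -0.38 ± 0.18 and -0.25 ± 0.17 at 3 h (adjusted p = 0.182 and 0.378). At 12 h they gave -0.07 ± 0.18 and 0.08 ± 0.17.

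Among the 4 condensin genes only glu was called against DMSO. The gene glu (CG11397) encodes an SMC ATPase of condensin, and its signals were 1368 and 1268 under DMSO, 1804 and 1840.0 at 3 h, 1922 at 6 h, and 1454 and 1597 at 12 h. All JH III arrays lay above both DMSO arrays, most at 3 h and 6 h. At 3 h it rose 1.38-fold (0.46 ± 0.09, adjusted p = 0.00841), at 6 h, with 1 readable array, 1.45-fold (0.54 ± 0.10, adjusted p = 0.0138), and it gave 0.21 ± 0.09 at 12 h (adjusted p = 0.204). The 3 h call was lost without 3 h replicate 2 (adjusted p = 0.0554), without DMSO replicate 2 (0.0758) and with median centring (0.0578), in a range of 0.00494 to 0.0758. At 6 h the adjusted p without DMSO replicate 2 was 0.0889, in a range of 0.00810 to 0.0889.

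Its partner SMC2 (CG10212), the other ATPase of the same ring, had signals of 983 and 1066 under DMSO, 995 and 1049 at 3 h, 1009 at 6 h, and 827 and 794 at 12 h. Only the 12 h arrays left the range of DMSO, and they lay below it. Its change was -0.00 ± 0.09 at 3 h and -0.33 ± 0.09 at 12 h (adjusted p = 0.991 and 0.0832), and with median centring it was called lower at 12 h (-0.45, adjusted p = 0.0255). The genes barr (CG10726) and Cap-G (CG34438), non-SMC subunits of condensin, gave -0.02 ± 0.10 and -0.12 ± 0.12 at 3 h and 0.02 ± 0.10 and 0.03 ± 0.12 at 12 h. Both probe sets of Cap-G were uncalled in every comparison.

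Of the 6 motor and cytokinesis genes, Klp10A alone was called. Klp10A (CG1453), a kinesin that shortens microtubules at spindle poles, had signals of 653 and 686 under DMSO, 915 and 893 at 3 h, 744 and 762 at 6 h, then 555 and 696 at 12 h. The 3 h arrays were highest, the 6 h arrays lay between them and DMSO, and the 12 h arrays lay on either side of DMSO. It rose 1.34-fold at 3 h (0.42 ± 0.12, adjusted p = 0.0367), and gave 0.16 ± 0.12 at 6 h and -0.10 ± 0.12 at 12 h (adjusted p = 0.406 and 0.669). The 3 h call was lost without either DMSO array (adjusted p = 0.170 and 0.123), either 3 h array (0.157 and 0.119) or either 6 h array (0.0501 and 0.0502), in a range of 0.0132 to 0.284. It was also lost with quantile normalization (0.284) and with median centring, where the value was 0.26 (adjusted p = 0.174). The spindle kinesin Klp61F, which slides antiparallel microtubules apart, the midzone bundler feo, the centralspindlin subunit tum, the cytokinesis gene pbl and the minus-end motor ncd were not called. Their changes lay between -0.12 (ncd) and 0.30 (pbl) at 3 h and between -0.22 (ncd) and 0.14 (feo) at 12 h.

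The direct comparison of 12 h with 3 h, which does not use the DMSO means, asked which genes differed between the early and the late exposure. The gene tacc fell by 0.46 ± 0.11 (adjusted p = 0.0283), msps fell by 0.38 ± 0.08 (adjusted p = 0.00948) and Klp10A fell by 0.52 ± 0.12 (adjusted p = 0.0178), all of which had risen at 3 h. Mad2 fell by 0.46 ± 0.09 (adjusted p = 0.00908) and SMC2 fell by 0.32 ± 0.09 (adjusted p = 0.0498), neither of which was called against DMSO on the authors' scale, while both were called lower at 12 h with median centring. In each of these 5 genes both 12 h arrays lay below both 3 h arrays, as the signals above show. The gene glu gave -0.25 ± 0.09 (adjusted p = 0.0803) and aurB 0.00 ± 0.11 (adjusted p = 0.996). Without 3 h replicate 1 all 5 calls were lost, with adjusted p of 0.116 for tacc, 0.0540 for msps, 0.0970 for Klp10A, 0.0700 for Mad2 and 0.137 for SMC2. Without 3 h replicate 2 the values were 0.128, 0.0637, 0.0763 and 0.205 for tacc, msps, Klp10A and SMC2, and only Mad2 was called. Without 12 h replicate 1 they were 0.0984 for tacc, 0.0610 for Klp10A and 0.0832 for SMC2, and without DMSO replicate 1 0.0503 for tacc and 0.0806 for SMC2. SMC2 was also lost without DMSO replicate 2 (0.0812) or 12 h replicate 2 (0.125). With quantile normalization all 5 were lost, and with median centring tacc (0.0522) and SMC2 (0.0895). Over all alternatives the adjusted p ranged from 0.0214 to 0.194 for tacc, 0.00549 to 0.0637 for msps, 0.00904 to 0.217 for Klp10A, 0.00515 to 0.0700 for Mad2 and 0.0378 to 0.312 for SMC2. Of the 30 genes 22, or 73.3%, had a change below 0 between 3 h and 12 h, beside 57.2% of all probe sets.

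**Figure D3:**
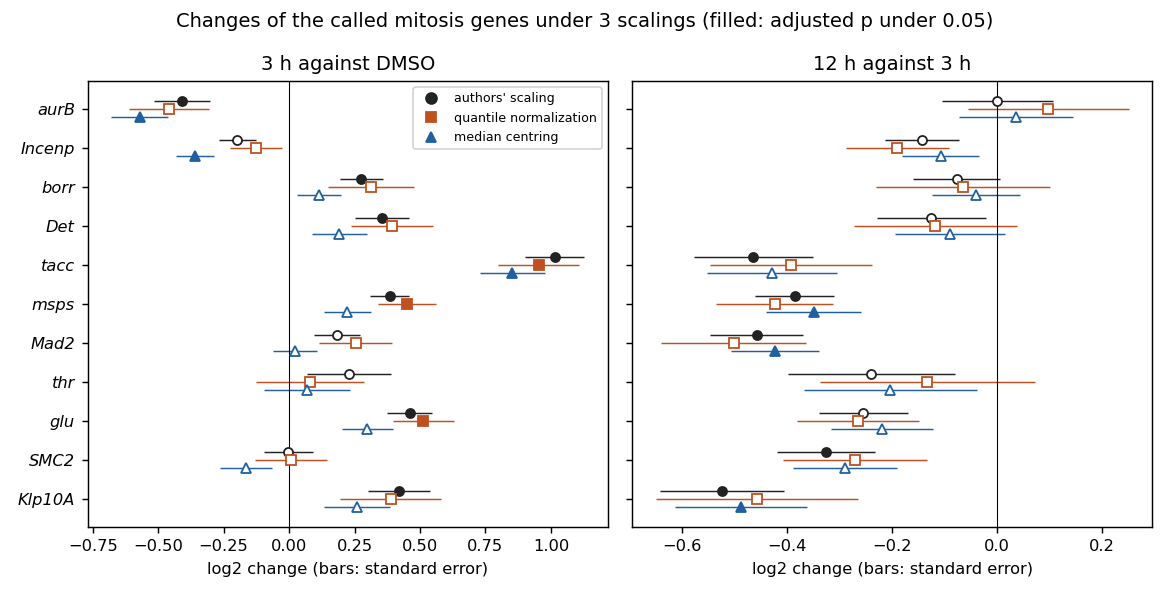
Log2 change (horizontal axis, bars are standard errors) of the 11 genes called in any comparison, at 3 h against DMSO (left) and at 12 h against 3 h (right), on the authors' scale, after quantile normalization and after median centring. Filled symbols passed an adjusted p of 0.05: tacc did at 3 h under all 3 scalings, and no gene did between 12 h and 3 h after quantile normalization.

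Over the 30 genes the median change was -0.01 at 3 h, 0.04 at 6 h and -0.07 at 12 h, beside 0.03, 0.05 and 0.00 over all probe sets tested. Between 12 h and 3 h the medians were -0.14 and -0.06. The 3 h median of the genes was 0.01 with quantile normalization and -0.17 with median centring, so its sign depends on the scaling, as does that of the 6 h median, -0.11 with median centring. The median size of change, without regard to sign, was 0.20, 0.14 and 0.16 at 3, 6 and 12 h, beside 0.25, 0.25 and 0.20 over all probe sets. Their median standard error at 3 h was 0.11, beside 0.17. The JH III arrays did not overlap the DMSO arrays for 17 genes at 3 h (56.7%, beside 62.4% of all probe sets), 18 at 6 h (60%, beside 65.4%) and 16 at 12 h (53.3%, beside 51.7%). A single array overlaps a group less easily than 2 do. At 6 h 18 of the 30 genes but only 2611 of the 8380 probe sets had 1 readable array, so those 2 shares cannot be compared directly. The 12 h arrays did not overlap the 3 h arrays for 20 genes (66.7%, beside 57.5%). Among the genes not called, the 95% interval lay within a 1.5-fold change either way for 16 of 23 at 3 h, 20 of 26 at 6 h and 25 of 28 at 12 h, and within 2-fold for 22, 25 and 27.

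**Figure D4:**
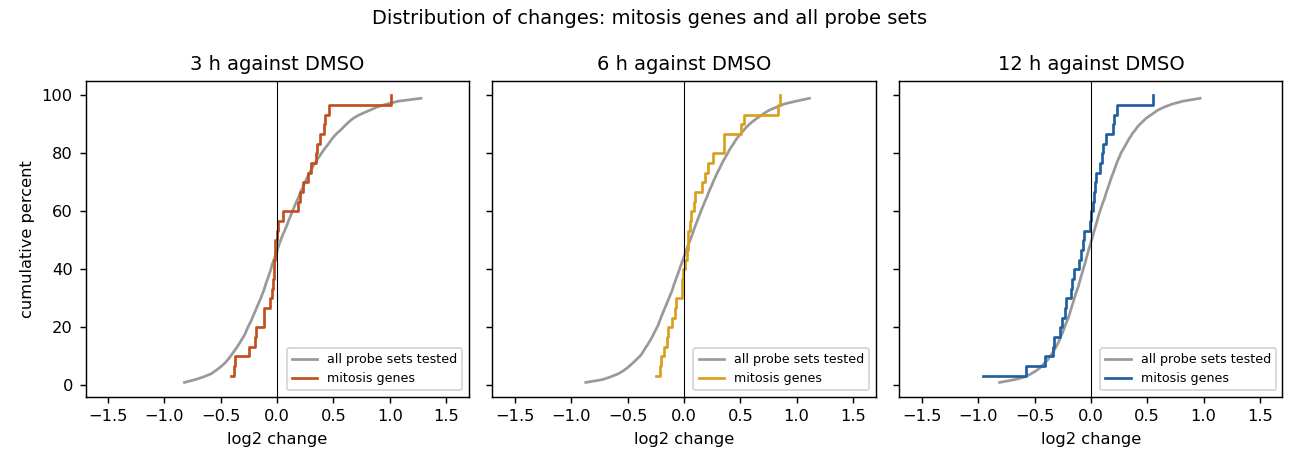
Cumulative percent (vertical axis) of the 30 mitosis genes (colour) and of all 8380 probe sets tested (grey, percentiles 1 to 99) against the log2 change from DMSO at 3, 6 and 12 h. The curves of the genes are steeper, with median sizes of change of 0.20, 0.14 and 0.16 beside 0.25, 0.25 and 0.20 for all.

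Other genes of the division cycle were read from lists outside the 40, with counts of calls by limma. Of all probe sets, 10.6% were called higher and 8.16% lower at 3 h, and 3.34% higher and 2.58% lower at 12 h. Of 11 further kinetochore and checkpoint genes, 2 rose and 0 fell at 3 h (median 0.41, and 0.25 with median centring). Cenp-C, which links centromeric chromatin to the kinetochore, rose by 0.62 ± 0.17, and the kinetochore gene Nnf1a rose by 0.49 ± 0.13. At 12 h none of the 11 was called (1 above and 1 below at an unadjusted p under 0.05). Of 19 further centriole and centrosome genes, Plp, a scaffold of the pericentriolar material, rose at 3 h (0.51 ± 0.12; median of the list 0.04, and -0.13 with median centring), and none was called at 12 h (0 above and 4 below unadjusted; median -0.18). The list of cohesin, condensin II and cohesion regulators had 0 calls of 11 at both times (2 above at 3 h and 1 below at 12 h unadjusted; medians 0.15 and 0.09, and -0.02 and -0.03 with median centring). Of 10 genes of the anaphase-promoting complex and its partners, the ubiquitin-conjugating enzyme gene vih rose by 0.30 ± 0.09 at 3 h, and Rca1, an inhibitor of the complex, fell by 0.43 ± 0.10 at 3 h and fell by 0.47 ± 0.10 at 12 h (medians -0.17 and -0.12). Each of these calls was lost without at least 1 array, with adjusted p up to 0.162 for Nnf1a, 0.192 for Cenp-C, 0.129 for Plp, 0.200 for vih, and 0.149 and 0.203 for Rca1.

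Of 25 other cell cycle kinases, phosphatases and regulators, 6 rose and 1 fell at 3 h (median 0.21), and 1 rose at 12 h (median -0.05, and 0.02 with quantile normalization). E2f1, the transcription factor that turns on S phase genes, had signals of 570.5 and 573 under DMSO, 1175 and 1274 at 3 h, 801 and 755 at 6 h, then 426 and 563 at 12 h. It was far above DMSO at 3 h. Both 12 h arrays lay below both DMSO arrays, 1 of them only just, and E2f1 was not called at 12 h against DMSO. Between 3 h and 12 h it fell by 1.28 ± 0.13 (adjusted p = 0.000396). At 3 h it rose 2.09-fold (1.07 ± 0.13, adjusted p = 0.00110), and CycE, the cyclin that starts S phase, rose 1.78-fold (0.83 ± 0.13, adjusted p = 0.00359). Both calls were kept without any 1 array (adjusted p up to 0.0143 and 0.0368). The phosphatase gene Pp1alpha-96A rose by 0.58 ± 0.11 (adjusted p up to 0.0608 without 1 array), and at 12 h lin-52, a subunit of a complex that represses E2F targets, rose by 0.52 ± 0.11 (up to 0.166). Of 38 DNA replication and S phase genes, 0 rose and 5 fell at 3 h (2 above and 9 below unadjusted; median -0.12), and 2 rose and 3 fell at 12 h (median -0.14). At 3 h the helicase subunit gene Mcm3 fell by 0.47 ± 0.08, Psf2 fell by 0.43 ± 0.11 and RPA3 fell by 0.33 ± 0.07 (adjusted p up to 0.0536, 0.156 and 0.0963 without 1 array). At 12 h dUTPase, which keeps uracil out of DNA, rose (0.68 ± 0.06, adjusted p = 0.00118, up to 0.0270 without 1 array), while Mcm6 fell by 0.60 ± 0.11 and the licensing factor gene dup fell by 0.36 ± 0.08 (up to 0.147 and 0.222).

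Of 23 further spindle microtubule genes, 2 rose and 2 fell at 3 h (median 0.10) and 3 rose at 12 h (median 0.07), and both medians turned negative with median centring (-0.06 and -0.06). The gene dgt2, a subunit of the augmin complex that nucleates microtubules within the spindle, had signals of 1934 and 1989 under DMSO, 1524 and 1575 at 3 h, 1628 and 1702 at 6 h, then 3482 and 3513 at 12 h. Its 12 h arrays were far above all others and its 3 h arrays the lowest. It fell by 0.34 ± 0.07 at 3 h (adjusted p = 0.00998, up to 0.0861 without 1 array) and rose 1.77-fold at 12 h (0.83 ± 0.07, adjusted p = 0.00108), a call kept without any 1 array (up to 0.0199). The kinesin gene Klp31E rose by 0.97 ± 0.20 and the dynein heavy chain gene Dhc64C by 0.68 ± 0.15 at 3 h (adjusted p up to 0.0772 and 0.114 without 1 array). At 12 h Rcc1, the chromatin-bound activator of Ran, rose by 0.49 ± 0.08 and betaTub56D, a beta-tubulin, by 0.31 ± 0.06 (up to 0.0789 and 0.177). Of 12 further cytokinesis genes, 2 rose and 1 fell at 3 h (median 0.21) and 1 rose at 12 h (median -0.08). The gene chic, the profilin of Drosophila, rose by 0.41 ± 0.06 at 3 h (adjusted p = 0.00286, up to 0.0337 without 1 array) and by 0.32 ± 0.06 at 12 h (up to 0.156). The lipid kinase gene fwd rose by 0.69 ± 0.19 and ALiX fell by 0.31 ± 0.08 at 3 h (up to 0.187 and 0.190).

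The markers of cell types in which these genes could move were read in the same arrays. Of 25 hemocyte markers 14 were tested. At 3 h 6 of them rose and 1 fell, beside 10.6% higher and 8.16% lower of all probe sets. At 12 h 0 were called (1 above and 3 below at an unadjusted p under 0.05 by limma), beside 5.92% of all probe sets. Hml, the hemocyte hemolectin gene, rose 1.82-fold at 3 h (0.87 ± 0.06), srp, a GATA factor of blood cells, rose by 0.57 ± 0.12, and vkg, a collagen gene, by 0.48 ± 0.08, and SPARC fell by 0.23 ± 0.07. The adjusted p without 1 array was up to 0.00388, 0.101, 0.0436 and 0.241 in that order. Between 12 h and 3 h 7 of the 14 were called lower and 1 higher (median -0.43), beside 9.02% lower and 7.48% higher of all probe sets. The summed signal of the 9 hemocyte markers readable on all arrays was 33164 to 33633 under DMSO, 33656 to 35327 at 3 h, 35855 to 36937 at 6 h and 33907 to 35772 at 12 h. SPARC alone made up 14837 to 21564 of these sums. Among hemocyte receptor genes NimC1, NimC3, eater, Sr-CI and Sr-CII were below the filter, and NimC2, crq and Pvr passed it, of which Pvr rose at 3 h (0.44 ± 0.09, adjusted p up to 0.0861 without 1 array). Of 17 neuronal and 17 muscle markers 3 each passed the filter, and none was called by limma in any comparison (at an unadjusted p under 0.05, 1 muscle marker above and 1 below at 6 h). The median of the 3 muscle markers was -0.46 at 3 h and 0.50 between 12 h and 3 h. Of 13 germline markers 6 passed, with medians of 0.12 at 3 h (-0.05 with median centring) and -0.48 between 12 h and 3 h. By limma 1 of the 6 was called higher at 3 h, 1 higher at 6 h and 0 at 12 h, and 1 was lower at 12 h than at 3 h. The shares of all probe sets were 10.6% higher at 3 h, 7.32% higher at 6 h and 9.02% lower between 12 h and 3 h. Of these tud rose by 0.88 ± 0.18 at 3 h and fell by 0.71 ± 0.18 between 3 h and 12 h (adjusted p up to 0.0914 and 0.201 without 1 array). Hybridization controls, spiked in and so free of cell RNA, differed from DMSO by log2 values of 0.14 at 3 h, 0.04 at 6 h and 0.53 at 12 h. The part of these marker and control differences in the changes of the mitosis genes was not tested.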

How the data were processed

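Signal intensity per probe set was deposited by the authors on a linear scale and came from MAS5 (version not given), per the submitters' processing notes. The genome build and the annotation behind it are not given in the sources used here. Gene symbols were taken from GEO's annotation of the platform, updated through a RefSeq gene table, and probes were not realigned. Of 14010 probe sets, 44 controls and 5586 dim ones (mean under the 40th percentile, a signal of 61.5) were left out, and 8380 were tested, 2611 of them missing on JH III 6 h replicate 2. The trimmed mean signal was 500.1 on 7 arrays and 376.2 on that array, whose readable values lay in the range of the others, and array medians were 70.9 to 85.9. Values were analysed as log2(signal + 25) in limma 3.58.1 (R 4.3.3), all 8 arrays in 1 fit of 4 group means with a variance trend. Two-sided p-values were adjusted over those 8380 by the method of Benjamini and Hochberg, the threshold was 0.05, and ± is the standard error. The fit was tested on simulated data. An exact permutation test of 2 arrays against 2 cannot go below p = 0.333 and was not used.

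Values on each array are given for every mitosis gene past the threshold in any comparison and for CycB, CycB3, fzy, fzr and cid whatever their result. Of each further list, up to 3 genes past the threshold with the largest change are named at 3 h and at 12 h. SPARC and the hemocyte receptor genes were named after their values were seen. The genes and lists were chosen with earlier results of these data known. Arrays with the same replicate number did not deviate together (correlation -0.047 to 0.066), so the numbers were not taken as pairs. The alternatives were quantile normalization, median centring, added constants of 1 and 100, no filter, a filter at the 60th percentile, no variance trend, a replicate block, each array left out, only the 2 groups compared, only probe sets readable on all arrays, and the mean of a gene's probe sets.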

Additional observations from a re-analysis of the deposited data

Results flagged for a closer look

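For 5 mitosis genes the effect at 12 h differed from that at 3 h by a direct test of the difference (limma, adjusted over all probe sets). The difference was -0.52 for Klp10A, -0.46 for tacc, -0.46 for Mad2, -0.38 for msps and -0.32 for SMC2 on the log2 scale, and both 12 h arrays lay below both 3 h arrays in each. All 5 were lost without 3 h replicate 1 (adjusted p from 0.0540 for msps to 0.137 for SMC2). Groups of 2 arrays were too small to look for single arrays that stand apart.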

How the results depend on the processing

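The 18 called values of the mitosis genes kept their direction under every alternative that gave a value. Of these 329 comparisons 221 stayed past the threshold and 108 did not. Changing the filter or the variance trend, or leaving out arrays of groups not compared, cannot alter the change itself. Direction was fixed in advance under those settings, so keeping it there shows nothing. The 7 genes called at 3 h became 3 with quantile normalization, 4 without the filter, 1 without the variance trend and 3 of the 12 genes readable on all arrays. With median centring the genes called at 3 h were others in part. The calls of tacc and aurB stayed, those of borr, Det, msps, glu and Klp10A were lost, and Incenp, Bub3 and fzy were called lower. Leaving out 1 array gave 1 to 8. The 4 called at 6 h became 1 of the 12 genes readable on all arrays, and 1 to 5 with an array left out. The 2 called at 12 h became 0 with quantile normalization, 6 with median centring, 4 with the filter at the 60th percentile, 0 without the variance trend, 0 with only the 2 groups compared and 0 of the 12 genes readable on all arrays, and 0 to 3 with an array left out. The 5 called between 12 h and 3 h became 0 with quantile normalization, 3 with median centring, 0 without the variance trend, 3 with only the 2 groups compared and 3 of the 12 genes readable on all arrays, and 0 to 5 with an array left out. With the replicate number as a block the counts were 4, 3, 0 and 5 at 3 h, 6 h, 12 h and between 12 h and 3 h, and the arrays share only a number. Genes readable on all arrays are fewer than the rest, which by itself lowers the count; for the other settings the cause was not tested. Having 2 arrays a group limits the precision of every value.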
